A study of Mus musculus with 39 samples.

Results

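The genes described here encode the enzymes that chemically change drugs, lipids, aldehydes and other reactive compounds: cytochrome P450s (Cyp), flavin monooxygenases (Fmo), epoxide hydrolases (Ephx), aldehyde dehydrogenases (Aldh), glutathione transferases (Gst), sulfotransferases (Sult) and UDP-glucuronosyltransferases (Ugt). Of 24946 genes measured, 200 carry a symbol of these 7 families, leaving out the astrocyte marker Aldh1l1. The 42 described had a wild-type mean of at least 50 units of normalized signal in each of the untreated Smad4, Alk1 and Eng cohorts. By family they are 14 Cyp, 2 Fmo, 1 Ephx, 11 Aldh, 12 Gst, 1 Sult and 1 Ugt genes. They were selected on family name and on wild-type levels of the untreated cohorts, by a rule written with earlier results of these data known, so those levels are given only as description, and an enzyme that is low in wild types but high in mutants cannot be among them. Just inside the threshold stood Cyp27a1, with a lowest cohort mean of 53.5, and just outside it Cyp11a1, with 46.8; Ephx2, the soluble epoxide hydrolase, stood outside at 42.5.

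RNA was sequenced from endothelial cells captured with PECAM-coated beads from whole brains of C57BL/6 pups, and 39 libraries in 9 groups were used. The Smad4 cohort held 5 mutants (Smad4f/f;Cdh5-CreERT2) and 5 wild types (Smad4f/f), and the Eng cohort 5 mutants (Engf/f;Cdh5-CreERT2) and 5 wild types (Engf/f), all taken on postnatal day 7 after 300 µg of tamoxifen on each of days 1 to 3. The Alk1 cohort held 5 mutants (Alk1f/f;Cdh5-CreERT2) and 5 wild types (Alk1f/f), taken on day 6 after 100 µg on day 4, so its age and dose cannot be told apart from its gene. Further Smad4 pups received 30 µg of antibody on days 2 and 4: control IgG in 3 mutants and 3 wild types, and LC10, an angiopoietin-2 inhibitor, in 3 mutants. In every pup called wild type the floxed allele was present and Cre was not, so Cre itself goes with the mutant groups; tamoxifen was given to all. The promoter of Cdh5, which encodes an endothelial cadherin, drives the Cre. Nothing in the labels says that libraries of a group came from separate pups, so p-values measure the spread between libraries.

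Depth ran from 11.11M to 30.92M inferred fragments per library. Smad4 signal lay between 1676 and 1916 in Smad4 mutants, against 5258 to 5903 in wild types, and Eng signal between 8613 and 11508 in Eng mutants, against 60151 to 70402 in wild types. Among IgG Smad4 mutants it was 3030 in mutant 1, 2099 in mutant 2 and 1817 in mutant 3, against 5625 to 5975 in IgG wild types. Acvrl1, the gene for ALK1, lay between 12441 and 15809 in libraries labelled Alk1 mutant, against 14197 to 16755 in wild types (log2 fold change -0.12 ± 0.08, limma adjusted p = 0.279), so its RNA level gives no check of those labels. None of the 10 endothelial markers was at 0 in any group.

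Detoxification usually runs in steps. P450s and flavin monooxygenases put oxygen on a compound, hydrolases and dehydrogenases deal with the epoxides and aldehydes that arise, and transferases attach glutathione, sulfate or glucuronic acid so that transporters can carry the product away. In brain endothelium these enzymes are regarded as a metabolic layer of the blood-brain barrier, beside the tight junctions and efflux pumps. Several of the genes are known targets of the aryl hydrocarbon receptor (AHR), of NRF2 or of nuclear receptors, and some P450 and Aldh members act mainly on the body's own sterols, retinoids, fatty acids or amino acids.

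The promoters of 5 genes on which the results turn are shown: Ephx1, which of the 42 rose most in Smad4 and Eng mutants; Sult1a1, which rose most in Alk1 mutants; Cyp1b1, which was called in opposite directions; and Gstm7 and Gstm5, neighbours that were lower in all 3 untreated cohorts. Sequences are from RefSeq on GRCm38.p6, each 300 bases on the gene's strand, 250 before and 50 from the annotated start. Capitals mark matches, on either strand, to the AHR core GCGTG or the antioxidant response core TGACNNNGC.
Ephx1, chr1:181017520-181017819, minus strand: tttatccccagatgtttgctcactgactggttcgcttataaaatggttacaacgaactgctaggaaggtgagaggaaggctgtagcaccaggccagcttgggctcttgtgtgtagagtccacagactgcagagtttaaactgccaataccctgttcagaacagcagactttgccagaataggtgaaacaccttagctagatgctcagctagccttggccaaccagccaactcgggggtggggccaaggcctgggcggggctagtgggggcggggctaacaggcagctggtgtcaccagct
Sult1a1, chr7:126676369-126676668, minus strand: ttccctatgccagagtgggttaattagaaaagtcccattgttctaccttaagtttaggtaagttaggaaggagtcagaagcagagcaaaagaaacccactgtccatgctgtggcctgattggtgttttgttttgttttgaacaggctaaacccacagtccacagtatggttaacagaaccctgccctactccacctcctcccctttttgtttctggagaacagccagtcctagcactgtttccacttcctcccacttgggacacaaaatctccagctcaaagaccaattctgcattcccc
Cyp1b1, chr17:79715012-79715311, minus strand: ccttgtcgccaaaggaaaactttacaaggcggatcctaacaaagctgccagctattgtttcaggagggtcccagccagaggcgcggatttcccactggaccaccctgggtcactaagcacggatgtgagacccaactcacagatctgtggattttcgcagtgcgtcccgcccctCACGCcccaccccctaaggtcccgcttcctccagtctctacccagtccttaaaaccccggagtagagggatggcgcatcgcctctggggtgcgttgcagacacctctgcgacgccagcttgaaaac
Gstm7, chr3:107931565-107931864, minus strand: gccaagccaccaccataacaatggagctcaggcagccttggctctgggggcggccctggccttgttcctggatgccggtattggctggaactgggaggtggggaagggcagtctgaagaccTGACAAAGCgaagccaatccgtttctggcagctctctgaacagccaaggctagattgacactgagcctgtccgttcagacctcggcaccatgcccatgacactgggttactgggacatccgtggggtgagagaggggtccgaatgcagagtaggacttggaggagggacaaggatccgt
Gstm5, chr3:107895604-107895903, plus strand: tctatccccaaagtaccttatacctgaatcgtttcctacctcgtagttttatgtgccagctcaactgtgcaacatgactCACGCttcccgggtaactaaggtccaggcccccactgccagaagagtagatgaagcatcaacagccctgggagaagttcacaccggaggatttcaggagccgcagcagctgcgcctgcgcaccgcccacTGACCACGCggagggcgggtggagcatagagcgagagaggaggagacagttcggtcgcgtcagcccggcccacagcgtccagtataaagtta
Cyp1b1 held 1 AHR core and Gstm7 1 antioxidant core; Gstm5 held both, its antioxidant match overlapping the second of its 2 AHR cores. Ephx1 and Sult1a1 held neither, nor the BMP-SMAD element GGCGCC nor a p53 half-site. Ephx1 has 4 annotated coding starts, of which 2 lie near its window. Gstm7 has 5, of which 3 lie near the window shown, and 2 windows in the source. The annotated 5' end of Gstm7, at 107931817, lies inside the window shown and before the antioxidant match. Windows existed for 33 of the 42 genes. The AHR core stood in 15 of them (45.5%), against 35.2% of 27025 genes with a window, and the antioxidant core in 5 (15.2%), against 14.0%. The BMP-SMAD element stood in 4 (12.1%), against 13.4%, and the p53 half-site in 2 (6.1%), against 9.6%. These are letter matches within 300 bases.

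Most enzymes that changed were lower in the mutants. All 42 passed the filter on low values and were tested in every comparison by limma on log2(signal + 2), with p adjusted over all genes of the table and called at 0.05. In Smad4 mutants 19 were lower and 3 higher than in wild types, where 15.3% of the genes with the same wild-type threshold were called lower and 18.6% higher. In Alk1 mutants 16 were lower and 4 higher, against 16.6% and 17.9%. In Eng mutants 11 were lower and 5 higher, against 10.3% and 13.6%. In IgG-treated Smad4 mutants, whose libraries the rule did not read, 14 were lower and 2 higher, against 8.29% and 10.6%. The threshold reads the wild-type side of the first 3 comparisons, so the comparison with genes under the same threshold is the fairer one. The lower calls came to 45.2%, 38.1%, 26.2% and 33.3% of the 42 in the order above.

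**Figure D1:**
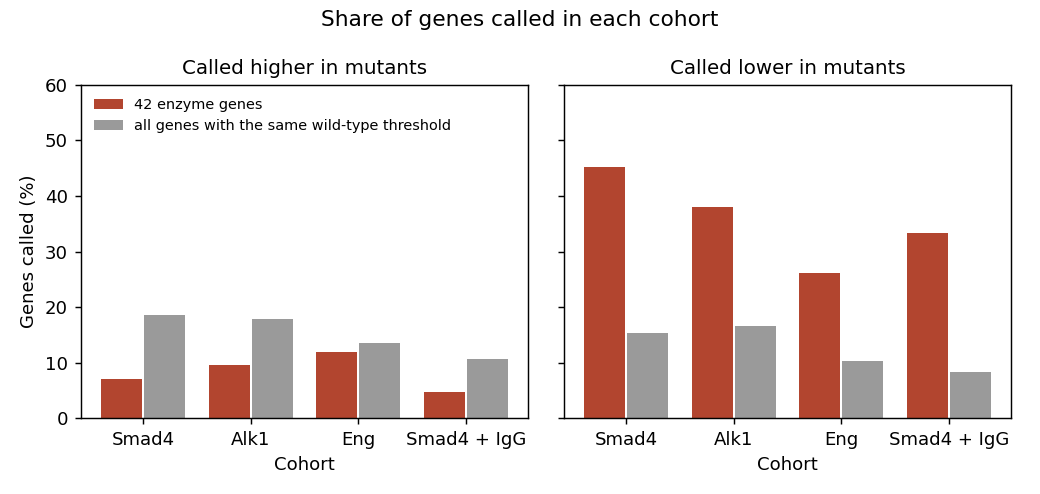
Share of genes called higher (left) or lower (right) in mutants, in percent, for the 42 enzyme genes and for all genes with the same wild-type threshold, in the 3 untreated cohorts and the IgG-treated Smad4 cohort. Among lower calls the enzyme bar is the taller in each cohort, for example 45.2% against 15.3% in Smad4.

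The median log2 fold change of the 42 was -0.36 in Smad4, -0.27 in Alk1, -0.09 in Eng and -0.29 in IgG-treated Smad4 mutants, where that of all genes tested lay between -0.01 and 0.00. Aldh6a1, Fmo1, Fmo5, Gsta4, Gstk1, Gstm5, Gstm7 and Gstt2 were lower in all 3 untreated mutants, which makes 8 of 42, against 3.36% of genes with the same threshold. Ephx1 alone was higher in all 3, against 5.07%. Aldh4a1 and Cyp1b1 were called in opposite directions in different mutants, and 11 genes were called in none. These 11 include Gstp1, Gstz1 and Cyp20a1, with log2 fold changes of -0.06, -0.21 and -0.04 in Smad4 mutants; Gstp1 shares 33.7% of its sequence with Gstp2 and other genes. With the number in the library names as a replicate block, Gstp1 (-0.22, adjusted p = 0.0193) and Cyp4f16 (-0.25, adjusted p = 0.0289) were called lower in Alk1 mutants.

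**Figure D2:**
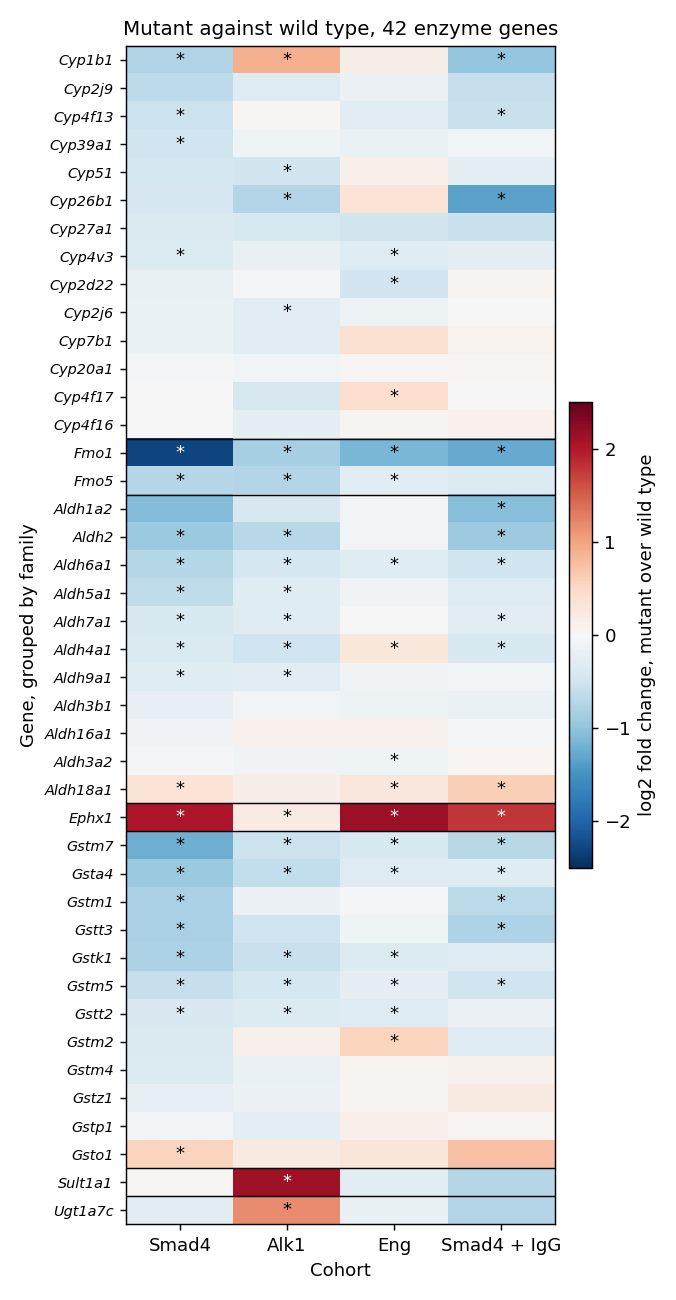
Log2 fold change, mutant over wild type (colour), of the 42 genes (rows, by family and then by value in Smad4) in the 4 comparisons (columns); an asterisk marks an adjusted p under 0.05. Blue prevails among Fmo, Aldh and Gst genes, Ephx1 is red in 3 columns and pale in Alk1, and Sult1a1 and Ugt1a7c are red in Alk1.

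RNA of several other cell types moved with genotype. Over all genes tested, 15.8% were called lower in Smad4 mutants, 15.7% in Alk1, 9.08% in Eng and 8.12% in IgG-treated Smad4 mutants. In Smad4 mutants the summed pericyte markers lay between 15663 and 48843, against 55419 to 78185 in wild types, and 5 of 8 were called lower. The smooth muscle sum was 2903 to 5419 in Smad4 mutants, against 6053 to 6922 in wild types (4 of 5 tested lower), and the fibroblast sum 8571 to 21939, against 19391 to 31662 (5 of 10 lower). Neuronal markers were lower for 7 of 10, their sum being 2412 to 5410 in Smad4 mutants and 4030 to 7126 in wild types. Of choroid plexus markers 3 of 5 tested were lower, at 3984 to 26585 in Smad4 mutants and 29749 to 146238 in wild types.
Oligodendrocyte markers were lower in Smad4 mutants for 3 of 7 tested and astrocyte markers for 2 of 10. In Alk1 mutants 4 of 5 smooth muscle, 2 of 10 fibroblast, 1 of 8 pericyte and 2 of 8 neuronal markers were lower. In IgG-treated Smad4 mutants 4 of 8 pericyte, 7 of 10 fibroblast and 5 of 9 microglial markers were lower. So were 1 of 5 smooth muscle, 2 of 9 neuronal, 1 of 10 astrocyte and 1 of 7 oligodendrocyte markers there. The astrocyte counts and the Alk1 pericyte and fibroblast counts lie near the shares of all genes. The median log2 fold change of astrocyte markers was nonetheless -1.19 in Smad4 and -0.64 in IgG-treated Smad4 mutants. It was -0.27 in Alk1 and -0.28 in Eng mutants. In Eng mutants no pericyte, smooth muscle, fibroblast, glial, neuronal or choroid marker was called, while 3 of 5 erythroid and 4 of 10 endothelial markers were lower there. Erythroid markers were also lower for 3 of 4 in Smad4 and 4 of 4 in Alk1 mutants. The endothelial sum was 542231 to 579510 in Eng mutants, against 564936 to 635795 in wild types. Of the 10 endothelial markers, 2 were higher and 1 lower in Smad4 mutants, and 3 higher and 2 lower in Alk1 mutants. Under IgG 1 was higher and 2 lower. In bulk RNA, fewer cells of a type and less RNA per cell cannot be told apart. With the mean level of mural, fibroblast and choroid markers as a covariate, 13 of the 22 Smad4 calls, 11 of the 20 Alk1 calls and 16 of the 16 Eng calls kept their direction and call. None of the 16 IgG calls did, and no gene of the whole table was called in that fit.

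Of the 14 cytochrome P450 genes, 4 were lower in Smad4 mutants, 3 lower and 1 higher in Alk1 mutants, 2 lower and 1 higher in Eng mutants, and 3 lower in IgG-treated Smad4 mutants. Lower calls came to 28.6%, 21.4%, 14.3% and 21.4%, against 15.3%, 16.6%, 10.3% and 8.29% of genes with the same wild-type threshold. In Alk1 and Eng mutants the P450 genes thus lay near the share of all such genes. Per kilobase of exon, Cyp2d22, of a subfamily known for drug oxidation, and Cyp20a1, whose substrate is not known, stood highest in wild types. Their signal per kilobase was 514.2 and 513 in the Smad4 cohort.
Cyp2d22 had 1789, 1844, 1884, 1862 and 1812 units in Eng mutants, against 2468, 2566, 2655, 2297 and 2773 in wild types. The groups did not overlap, and it fell (log2 fold change -0.47 ± 0.05, adjusted p = 4.5e-05), while it was not called in the other comparisons. Cyp4f17, of the fatty acid and leukotriene hydroxylase subfamily, had 293, 311, 288, 266 and 364 units in Eng mutants, against 251, 217, 213, 224 and 229 in wild types. Every Eng mutant was above every wild type, and it rose (0.42 ± 0.10, adjusted p = 0.0104). Its log2 effect in Alk1 mutants was -0.40 ± 0.15 and not called, and the Alk1 and Eng effects differed (-0.81, adjusted p = 0.00183).

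Cyp1b1, which oxidises oestrogens, retinoids and aromatic hydrocarbons and is a known AHR target, went opposite ways. In Smad4 mutants it had 89.1, 101, 160, 92.3 and 72.6 units, against 253, 143, 170, 136 and 162 in wild types. The third mutant lay within the wild-type range, and the fall (-0.75 ± 0.23, adjusted p = 0.0284) lost its call in 9 of 23 alternatives, among them the fit without wild type 1 (-0.61, adjusted p = 0.0655).
In Alk1 mutants it had 131, 254, 181, 255 and 130 units, against 101, 122, 115, 71.3 and 86.3 in wild types. There the groups did not overlap and Cyp1b1 rose (0.89 ± 0.23, adjusted p = 0.011). The IgG-treated Smad4 mutants had 91.1, 85.9 and 105 units, against 222, 200 and 140 in IgG wild types, again a fall (-0.96 ± 0.21, adjusted p = 0.0241). The effects in Smad4 and Alk1 mutants differed by -1.64 (adjusted p = 0.000828).

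Cyp26b1, which breaks down retinoic acid, had 54.2, 86.9, 80.7, 70.5 and 75.3 units in Alk1 mutants, against 161, 88.8, 141, 99.6 and 137 in wild types. The groups came close but did not overlap, and it fell (-0.74 ± 0.20, adjusted p = 0.0129). In IgG-treated Smad4 mutants it had 90.4, 170 and 125 units, against 305, 297 and 352 in IgG wild types, the largest fall of any of the 42 in that cohort (-1.34 ± 0.23, adjusted p = 0.0119).
The untreated Smad4 effect was -0.42 ± 0.20 and not called (adjusted p = 0.125), and that in Eng mutants 0.34 ± 0.12 (adjusted p = 0.0605). The Alk1 and Eng effects differed by -1.08 (adjusted p = 0.00416). Among sterol-handling P450s, Cyp39a1, an oxysterol hydroxylase, fell in Smad4 mutants (-0.49 ± 0.07, adjusted p = 0.000647), and Cyp51, the lanosterol demethylase of cholesterol synthesis, in Alk1 mutants (-0.45 ± 0.15, adjusted p = 0.0341). Cyp7b1 and Cyp27a1, which also hydroxylate sterols, were called in no comparison.

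Both flavin monooxygenase genes fell in all 3 untreated mutants. Fmo1, whose enzyme oxidises nitrogen and sulphur atoms of drugs (chr1:162829561-162866610, mm10, minus strand), had 283, 266, 360, 220 and 200 units in Smad4 mutants, against 2063, 1246, 1224, 1136 and 968 in wild types. The mutants held well under the lowest wild type, a 4.9-fold difference (-2.29 ± 0.21, adjusted p = 1.55e-05) and the largest fall among the 42.
In Alk1 mutants it had 726, 1130, 857, 787 and 599 units, against 2177, 1569, 1438, 1161 and 1052 in wild types. One mutant lay above the lowest wild type, and the effect was -0.83 ± 0.20 (adjusted p = 0.00699). Its Eng mutants had 949, 1049, 835, 942 and 708 units, against 1956, 1990, 2142, 2065 and 1764 in wild types, with no overlap (-1.15 ± 0.09, adjusted p = 7.97e-06). The Smad4 effect was larger than that in Alk1 (difference -1.46, adjusted p = 0.000308) and in Eng mutants (-1.14, adjusted p = 0.00701).
Under IgG, Smad4 mutants 1, 2 and 3 had 621, 393 and 247 units, against 952, 881 and 1005 in IgG wild types (-1.26 ± 0.29, adjusted p = 0.0262). Mutant 1, the highest, is also the one with the most Smad4 signal left, whose part in the value was not tested. With mural, fibroblast and choroid markers in the fit the effect was -1.79 in Smad4, -0.97 in Alk1 and -1.18 in Eng mutants, all called, and -0.36 under IgG, not called (adjusted p = 0.782).

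Fmo5, a family member known in humans for inserting oxygen beside carbonyl groups, had 267, 214, 204, 190 and 165 units in Smad4 mutants, against 319, 344, 420, 310 and 302 in wild types (-0.71 ± 0.14, adjusted p = 0.00379). In Alk1 mutants it lay between 190 and 236, against 319 to 403 in wild types (-0.74 ± 0.10, adjusted p = 0.000234). Neither pair of groups overlapped. In Eng mutants it lay between 364 and 434, against 415 to 521 in wild types, a smaller fall (-0.28 ± 0.08, adjusted p = 0.0262) that lost its call in 8 of 21 alternatives. The Alk1 and Eng effects differed (-0.46, adjusted p = 0.0358), and the IgG effect was not called (-0.34 ± 0.16, adjusted p = 0.169).

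Ephx1, the microsomal epoxide hydrolase that opens reactive epoxides to diols (chr1:180976210-181020904, minus strand), rose about 4-fold in Smad4 and Eng mutants and little in Alk1 mutants. It had 3549, 3587, 3347, 2990 and 3226 units in Smad4 mutants, against 941, 750, 910, 724 and 806 in wild types (2.02 ± 0.08, adjusted p = 7.31e-08). In Eng mutants it had 3979, 3931, 3727, 3890 and 4189 units, against 906, 889, 982, 962 and 756 in wild types (2.14 ± 0.07, adjusted p = 1.45e-09). In both cohorts the lowest mutant stood over 3 times as high as the highest wild type.
In Alk1 mutants it had 735, 757, 777, 785 and 743 units, against 652, 694, 605, 698 and 660 in wild types. Here too the groups did not overlap, but the rise was 1.15-fold (0.20 ± 0.07, adjusted p = 0.0393) and lost its call in 12 of 23 alternatives, such as total scaling (0.13, adjusted p = 0.229). The Smad4 and Alk1 effects differed by 1.82 (adjusted p = 2.86e-13) and the Alk1 and Eng effects by -1.94 (adjusted p = 1.65e-13); that between Smad4 and Eng was -0.12 ± 0.10 (adjusted p = 0.513).
IgG-treated Smad4 mutants 1, 2 and 3 had 2365, 2968 and 3682 units, against 931, 908 and 744 in IgG wild types (1.78 ± 0.16, adjusted p = 0.00206). The lowest was mutant 1, with the most Smad4 signal, and a link between the 2 was not tested. Other called genes went either way. Mutant 1 was the least lowered for Aldh2 (2377 units, against 1703 and 1784 in mutants 2 and 3). It was the most lowered for Cyp26b1 (90.4 units, against 170 and 125). With mural, fibroblast and choroid markers in the fit the rise was 2.14 in Smad4 and 2.12 in Eng mutants, both called, and 1.51 under IgG, not called (adjusted p = 0.237).

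**Figure D3:**
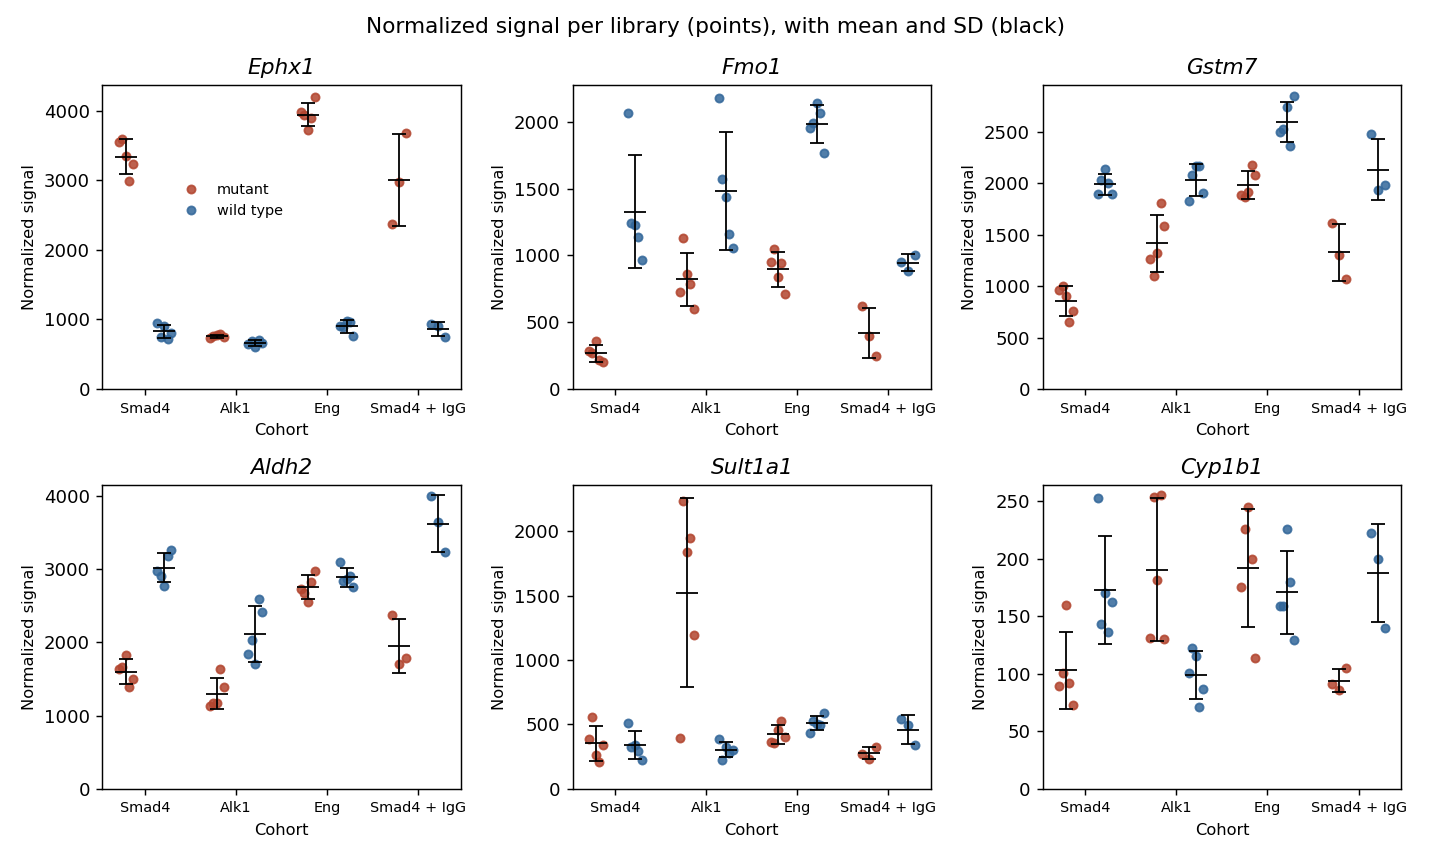
Normalized signal (y axis, from 0) of 6 genes in each library, mutants (red) left of wild types (blue) in each cohort; points are libraries and black bars the mean ± SD (n = 5 per group, n = 3 under IgG). Ephx1 stands at 2990 to 4189 in Smad4 and Eng mutants and at 735 to 785 in Alk1 mutants, and 4 of 5 Alk1 mutants have over 1000 units of Sult1a1.

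Of the 11 aldehyde dehydrogenase genes, 6 were lower and 1 higher in Smad4 mutants, 6 lower in Alk1 mutants, 2 lower and 2 higher in Eng mutants, and 5 lower and 1 higher in IgG-treated Smad4 mutants. Lower calls came to 54.5%, 54.5%, 18.2% and 45.5%, against 15.3%, 16.6%, 10.3% and 8.29% of genes with the same wild-type threshold. The 6 lower genes were the same in Smad4 and Alk1 mutants: Aldh2, Aldh4a1, Aldh5a1, Aldh6a1, Aldh7a1 and Aldh9a1.
Aldh2, the mitochondrial enzyme that clears acetaldehyde and lipid aldehydes, had 1634, 1659, 1829, 1391 and 1493 units in Smad4 mutants, against 2974, 2905, 2775, 3175 and 3264 in wild types (-0.92 ± 0.08, adjusted p = 9.72e-06). In Alk1 mutants it had 1137, 1165, 1169, 1643 and 1393 units, against 1837, 2031, 1703, 2592 and 2418 in wild types (-0.70 ± 0.13, adjusted p = 0.00193). Mutants and wild types did not overlap in either cohort. In Eng mutants it lay between 2557 and 2982, against 2753 to 3103 in wild types, overlapping and not called (-0.07 ± 0.05, adjusted p = 0.329).
The Smad4 effect minus the Eng effect was -0.85 (adjusted p = 0.000181), and the Alk1 effect minus the Eng effect -0.63 (adjusted p = 0.00279). IgG-treated Smad4 mutants had 2377, 1703 and 1784 units, against 4001, 3640 and 3232 in IgG wild types (-0.90 ± 0.13, adjusted p = 0.00832), close to the untreated value.

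Aldh6a1, which acts in valine and pyrimidine breakdown, was the only Aldh gene lower in every comparison. It lay between 590 and 933 in Smad4 mutants, against 1082 to 1356 in wild types (-0.72 ± 0.12, adjusted p = 0.00142), and between 774 and 866 in Alk1 mutants, against 1023 to 1149 (-0.42 ± 0.07, adjusted p = 0.00049). Among Eng mutants it lay between 1200 and 1386, against 1516 to 1668 in wild types (-0.31 ± 0.05, adjusted p = 0.000876), and in IgG-treated Smad4 mutants between 750 and 949, against 1117 to 1265 (-0.50 ± 0.10, adjusted p = 0.0177). None of these groups overlapped.
Aldh9a1, which makes precursors of carnitine and GABA, had the highest wild-type level of its family per kilobase, at 1021.6 in the Smad4 cohort. Its signal lay between 2743 and 2874 in Smad4 mutants, against 3271 to 3620 in wild types (-0.30 ± 0.04, adjusted p = 0.00046), and between 2754 and 3146 in Alk1 mutants, against 3322 to 3805 (-0.28 ± 0.06, adjusted p = 0.00452). It was not called in Eng (-0.09 ± 0.03, adjusted p = 0.052) or under IgG (-0.07 ± 0.07). Aldh5a1, which disposes of the GABA product succinic semialdehyde, and Aldh7a1, of lysine breakdown, fell by 0.64 and 0.38 in Smad4 and by 0.30 and 0.31 in Alk1 mutants on the log2 scale.

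A pair of Aldh genes work at opposite ends of proline metabolism. Aldh4a1, which completes proline breakdown to glutamate, lay between 1178 and 1360 in Smad4 mutants, against 1527 to 1804 in wild types (-0.36 ± 0.07, adjusted p = 0.00252), and between 926 and 1139 in Alk1 mutants, against 1406 to 1547 (-0.49 ± 0.08, adjusted p = 0.000415). It was higher in Eng mutants, between 1924 and 2066, against 1525 to 1773 in wild types (0.27 ± 0.05, adjusted p = 0.00141). The groups were apart in all 3 cohorts, and the Smad4 and Alk1 effects lay below that in Eng mutants (differences of -0.63, adjusted p = 1.67e-05, and -0.76, adjusted p = 8.32e-07). Of its transcript sequence 30% (words of 50 bases) is shared with the overlapping annotation Gm21969, so its count is uncertain.
Aldh18a1, which starts proline synthesis, was higher in Smad4 (0.35 ± 0.08, adjusted p = 0.0102), Eng (0.29 ± 0.04, adjusted p = 0.000436) and IgG-treated Smad4 mutants (0.59 ± 0.10, adjusted p = 0.0114), and 0.15 ± 0.09 and not called in Alk1 mutants.

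Aldh1a2, which makes retinoic acid and is also a marker on the fibroblast list, had 41.4, 57.2 and 59.8 units in IgG-treated Smad4 mutants, against 102, 143 and 92.9 in IgG wild types (-1.06 ± 0.25, adjusted p = 0.0292). In untreated Smad4 mutants it had 59.8, 68.5, 168, 35.1 and 31.0 units, against 182, 166, 111, 87.2 and 120 in wild types. Mutant 3 stood within the wild-type range, and the effect was not called (-1.08 ± 0.41, adjusted p = 0.062), but without that mutant it was (-1.44, adjusted p = 0.00472). With mural, fibroblast and choroid markers in the fit, a level computed without Aldh1a2, it was -0.08 in Smad4 mutants.

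Among the 12 glutathione transferase genes 7 were lower and 1 higher in Smad4 mutants, 5 lower in Alk1 mutants, 5 lower and 1 higher in Eng mutants, and 5 lower under IgG. The lower calls made up 58.3% in Smad4 mutants and 41.7% in each other comparison. Genes with the same wild-type threshold were lower for 15.3%, 16.6%, 10.3% and 8.29% in that order. Gstm1, Gsta4, Gstm7 and Gstm5 had wild-type levels of 1953.2, 1458.2, 1242.7 and 1001.3 units per kilobase in the Smad4 cohort. The 5 mu class genes lie within 149.1 kb of chromosome 3, in the order Gstm5, Gstm7, Gstm2, Gstm1 and Gstm4, and did not move as one.
Gstm7 had 960, 996, 908, 654 and 753 units in Smad4 mutants, against 1894, 2026, 2135, 1997 and 1896 in wild types, a 2.35-fold difference (-1.23 ± 0.11, adjusted p = 1.43e-05). In Alk1 mutants it had 1265, 1097, 1320, 1808 and 1581 units, against 1823, 2081, 2170, 2166 and 1908 in wild types (-0.54 ± 0.12, adjusted p = 0.00479). In Eng mutants it lay between 1865 and 2177, against 2356 to 2844 in wild types (-0.39 ± 0.06, adjusted p = 0.000788). No mutant reached the lowest wild type in any of the 3 cohorts.
The Smad4 effect on Gstm7 was larger than that in Alk1 (-0.69, adjusted p = 0.00161) and Eng mutants (-0.85, adjusted p = 0.000399). In IgG-treated Smad4 mutants it had 1615, 1301 and 1066 units, against 2477, 1936 and 1982 in IgG wild types (-0.69 ± 0.16, adjusted p = 0.0256).

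Gstm5, which lies next to Gstm7, had 980, 1045, 762, 900 and 666 units in Smad4 mutants, against 1259, 1344, 1512, 1192 and 1091 in wild types (-0.57 ± 0.13, adjusted p = 0.00733). It fell also in Alk1 (-0.43 ± 0.15, adjusted p = 0.0395, overlapping groups, a call lost in 11 of 23 alternatives) and Eng mutants (-0.25 ± 0.06, adjusted p = 0.00731).
Gstm1 had 1745, 1707, 2243, 1352 and 1273 units in Smad4 mutants, against 3199, 2825, 3103, 2566 and 2693 in wild types (-0.81 ± 0.14, adjusted p = 0.00135). It was also lower under IgG, with 2334, 1851 and 1684 units in Smad4 mutants, against 3583, 3101 and 2635 in IgG wild types (-0.67 ± 0.14, adjusted p = 0.0225). Its effects in Alk1 (-0.14 ± 0.11) and Eng mutants (-0.03 ± 0.05) were not called, and the Smad4 effect lay below each (by -0.67, adjusted p = 0.00397, and -0.78, adjusted p = 0.00191). Of its sequence 18.9% is shared with other genes, most with Gstm2-ps1, so its level is uncertain.
Gstm2 went the other way in 1 cohort: it had 616, 643, 679, 718 and 719 units in Eng mutants, against 369, 411, 473, 473 and 600 in wild types. The groups did not overlap, and it rose (0.55 ± 0.11, adjusted p = 0.0047), while in Smad4 mutants it was -0.36 ± 0.15 and not called (adjusted p = 0.0807). The effects differed by -0.91 (adjusted p = 0.00114). Gstm4 was called in no cohort, although its effect was lower in Smad4 than in Eng mutants (-0.41, adjusted p = 0.0337).

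**Figure D4:**
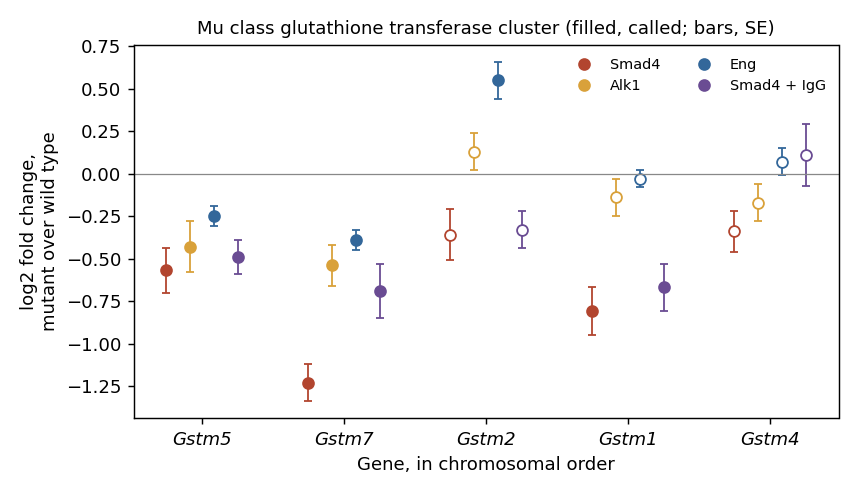
Log2 fold change, mutant over wild type, ± SE (y axis) of the 5 Gstm genes in chromosomal order (x axis) in the 4 comparisons (colours); filled points are called, open points are not. Gstm5 and Gstm7 are below 0 in all 4 and called, and Gstm2 is above 0 and called in Eng.

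Outside the cluster, Gsta4, which conjugates aldehydes from lipid peroxidation, had 586, 1006, 946, 1008 and 1095 units in Smad4 mutants, against 837, 1805, 1844, 2238 and 2506 in wild types. Wild type 1 lay below 4 of the 5 mutants. The fall (-0.93 ± 0.27, adjusted p = 0.0241) was larger without that library (-1.19, adjusted p = 0.00105). It lost its call in 5 of 23 alternatives, among them the fit without wild type 5 (-0.80, adjusted p = 0.0562). The fall was -0.61 ± 0.12 in Alk1 (adjusted p = 0.00278) and -0.33 ± 0.06 in Eng mutants (adjusted p = 0.00139).
Gsta4 levels differed more between tables than between genotypes. IgG-treated libraries had 525 to 580 units in Smad4 mutants, against 658 to 693 in wild types (-0.30 ± 0.08, adjusted p = 0.0393, a call lost in 9 of 16 alternatives). Eng-cohort libraries had 2743 to 3343 in mutants, against 3578 to 4078 in wild types. The tables were normalized separately, and the cause of this spread was not tested.
Gstk1, of mitochondria and peroxisomes, lay between 207 and 246 in Smad4 mutants, against 339 to 469 in wild types (-0.79 ± 0.12, adjusted p = 0.000587). It was -0.55 ± 0.14 in Alk1 (adjusted p = 0.00922) and -0.35 ± 0.07 in Eng mutants (adjusted p = 0.00344), with no overlap in any of the 3. Gstt2, of the theta class, fell by 0.38, 0.34 and 0.32 on the log2 scale in Smad4, Alk1 and Eng mutants, with overlap of 1 or more libraries each time. Its neighbour Gstt3, which shares 12.5% of its sequence with other genes, fell in Smad4 (-0.81 ± 0.19, adjusted p = 0.00912) and IgG-treated Smad4 mutants (-0.77 ± 0.18, adjusted p = 0.0295).
Gsto1, of the omega class, which reduces rather than conjugates, was the only Gst gene higher in Smad4 mutants, with 254, 390, 401, 422 and 418 units, against 273, 223, 254, 236 and 272 in wild types (0.56 ± 0.15, adjusted p = 0.0139). Mutant 1 lay within the wild-type range. Under IgG the estimate was 0.73 ± 0.23 and not called (adjusted p = 0.0601).

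The single Sult and Ugt genes rose in Alk1 mutants. Sult1a1, a phenol sulfotransferase (chr7:126672865-126676432, minus strand), had 398, 2235, 1843, 1950 and 1197 units in Alk1 mutants, against 390, 226, 328, 278 and 302 in wild types. Mutant 1 stood just above the highest wild type and the other 4 were 3 times as high or more. The rise was 2.12 ± 0.39 (adjusted p = 0.00141), and 2.55 without mutant 1 (adjusted p = 2.8e-06).
In the other cohorts the effect was not called: 0.02 ± 0.27 in Smad4, -0.28 ± 0.12 in Eng and -0.71 ± 0.21 in IgG-treated Smad4 mutants (adjusted p = 0.958, 0.116 and 0.0516). The Alk1 effect differed from that in Smad4 (-2.09 for Smad4 minus Alk1, adjusted p = 0.00125) and Eng mutants (2.40 for Alk1 minus Eng, adjusted p = 0.000438). Among the 3 mutant and 3 wild-type Alk1 libraries without a library code in their names it was 1.94 and not called (adjusted p = 0.0566).
Ugt1a7c, which attaches glucuronic acid, had 132, 165, 145, 183 and 130 units in Alk1 mutants, against 36.3, 72.2, 40.1, 93.5 and 116 in wild types. The groups did not overlap, and it rose (1.18 ± 0.29, adjusted p = 0.00901). As 53.7% of its sequence is shared with other genes, most with Ugt1a6a, the value may not belong to Ugt1a7c alone. The differences of Smad4 minus Alk1 (-1.43, adjusted p = 0.0616) and Alk1 minus Eng (1.35, adjusted p = 0.0827) were not called.

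The IgG cohort repeats the Smad4 deletion in separate libraries. Of the 22 genes called in untreated Smad4 mutants, 22 had the same sign under IgG, as had 95.8% of 4211 genes of the same threshold, and 14 were also called: 12 lower and 2 higher. Across the 42, which are not independent replicates, the effects had a Pearson r of 0.84 and a Spearman rho of 0.75. Between untreated Smad4 and Eng mutants Pearson r was 0.80 as well, with a rho of 0.45, so a high r is not particular to the repeated deletion. The 8 not called under IgG were Aldh5a1, Aldh9a1, Cyp39a1, Cyp4v3, Fmo5, Gstk1, Gsto1 and Gstt2. The IgG count rests on 3 libraries a group: without mutant 2, wild type 1, wild type 2 or wild type 3 the lower calls came to 3, 5, 4 and 7.

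**Figure D5:**
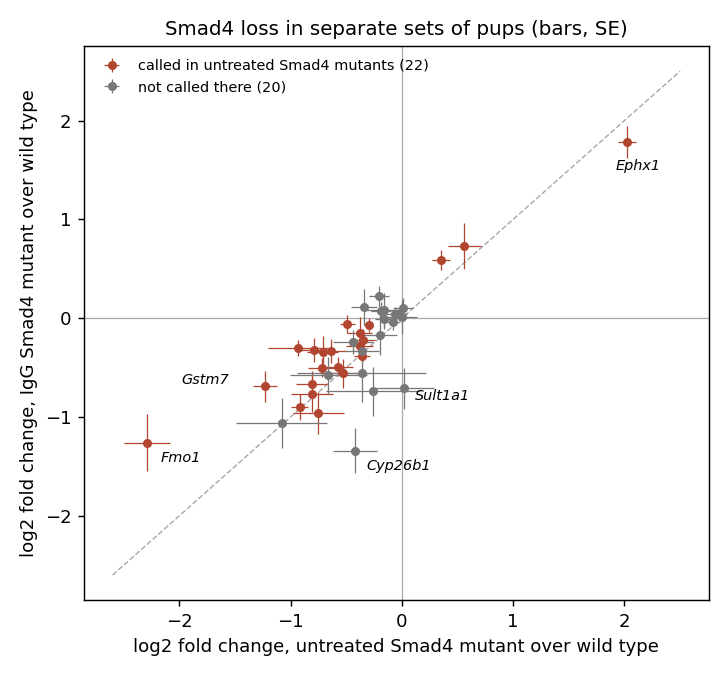
Log2 fold change, mutant over wild type, ± SE of the 42 genes in untreated (x axis) and IgG-treated (y axis) Smad4 cohorts; red points are called in the untreated cohort and the dashed line marks equal effects. All 22 red points have the same sign on both axes; Cyp26b1 lies below the line at -0.42 and -1.34 and Fmo1 above it at -2.29 and -1.26.

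LC10-treated Smad4 mutants have a table of their own, and wild types given LC10 were not analysed here, so treatment and table cannot be told apart and no test was made. Scaled to the IgG table, 40 of 42 genes lay within 0.5 log2 of their IgG mutant level, with a median of 0.01. The exceptions were Fmo1, at 202, 174 and 186 units in LC10-treated mutants, against 621, 393 and 247 in IgG-treated ones (-1.06), and Cyp2j9, which hydroxylates arachidonic acid, at 90.3, 94.7 and 134, against 58.2, 54.6 and 63.1 (0.82). Of the 14 genes lower in IgG mutants, 13 had all 3 LC10-treated mutants below all 3 IgG wild types. Those 14 had been called against the same 3 wild types, which favours such a separation. The share over all genes was computed neither for this count nor for the 40 of 42, so both are description only. Ephx1 was at 3951, 3640 and 3416 units in LC10-treated mutants, against 931, 908 and 744 in IgG wild types.

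Effects of the 42 were also compared between the untreated cohorts. They differed between Smad4 and Alk1 for 7 genes, against 17.4% of genes with the same threshold, between Smad4 and Eng for 10, against 8.88%, and between Alk1 and Eng for 9, against 16.5%. All 10 between Smad4 and Eng had the lower value in Smad4, where 4.02% of genes did, 5 of them Aldh and 4 Gst genes. Without Smad4 mutant 3 the first count was 11, and without Eng mutant 2 the second was 6.

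Genes that supply or control these enzymes were counted in lists. Over all genes tested, 17.2% were higher and 15.8% lower in Smad4 mutants, 17.5% and 15.7% in Alk1, 12.4% and 9.08% in Eng, and 9.67% and 8.12% in IgG-treated Smad4 mutants, and the counts are to be read against these shares. Of 11 redox partners and haem suppliers of the P450s, 2 were lower in Smad4 mutants, 2 higher and 1 lower in Alk1, 1 lower in Eng and 2 lower in IgG-treated Smad4 mutants. Por, the reductase that feeds electrons to P450s, fell in Smad4 (-0.33 ± 0.05, adjusted p = 0.000514), Eng (-0.18 ± 0.05, adjusted p = 0.0185) and IgG-treated mutants (-0.25 ± 0.07, adjusted p = 0.044). Alas1, which starts haem synthesis, fell in Alk1 (-0.83 ± 0.06, adjusted p = 2.46e-06), Smad4 (-0.48 ± 0.07, adjusted p = 0.000479) and IgG-treated mutants (-0.62 ± 0.09, adjusted p = 0.00768). Cyb5r3, a cytochrome b5 reductase, and Hmox1, which breaks down haem, rose in Alk1 mutants (0.52 each, adjusted p = 0.00125 and 0.00137).
Of 9 AHR pathway genes 2 were higher and 2 lower in Smad4 mutants, 2 higher and 1 lower in Alk1, 2 higher in Eng, and 1 higher and 2 lower under IgG. Ahr itself fell in Smad4 (-1.27 ± 0.10, adjusted p = 8.82e-06) and IgG-treated Smad4 mutants (-0.87 ± 0.17, adjusted p = 0.0157). It was not called in Alk1 (-0.26 ± 0.15) or Eng mutants (0.00 ± 0.07). Ptges3 and Hsp90ab1 encode chaperones that hold AHR in the cytosol: Ptges3 was higher in all 4 comparisons (0.19 to 0.32), and Hsp90ab1 in Smad4 mutants (0.33 ± 0.08, adjusted p = 0.00815). Nqo1, a quinone reductase that is both an AHR and an NRF2 target, rose in Eng mutants (0.81 ± 0.16, adjusted p = 0.00449). It was 0.36 ± 0.17 in Smad4, 0.07 ± 0.20 in Alk1 and 0.30 ± 0.17 in IgG-treated Smad4 mutants, none of them called.
Of 17 NRF2 pathway genes 3 were higher and 3 lower in Smad4 mutants, 4 higher and 3 lower in Alk1, 9 higher and 1 lower in Eng, and 2 higher and 1 lower under IgG. Fth1, the ferritin heavy chain that stores iron, had the smallest adjusted p of the list: it fell in Smad4 (-1.19 ± 0.08, adjusted p = 1.87e-06), Alk1 (-0.47 ± 0.14, adjusted p = 0.0232) and IgG-treated Smad4 mutants (-1.08 ± 0.10, adjusted p = 0.00206), and was -0.21 ± 0.07 and not called in Eng mutants. Tkt, the transketolase of the pentose phosphate pathway, rose in Eng (0.35 ± 0.04, adjusted p = 5.23e-05) and Alk1 mutants (0.24 ± 0.06, adjusted p = 0.00829). Txnrd1, a thioredoxin reductase, was higher in all 4 comparisons (0.32 to 0.39). Cat, the catalase gene, was called higher in Smad4 (0.13 ± 0.04, adjusted p = 0.042) and lower in Eng mutants (-0.23 ± 0.03, adjusted p = 0.000583).

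Of 20 tested genes for glutathione supply and recycling, 2 were higher and 2 lower in Smad4 mutants, 6 higher and 2 lower in Alk1, 3 higher in Eng, and 1 higher and 1 lower under IgG; Gpx1, a glutathione peroxidase, was higher in all 4 (0.50, 0.23, 0.30 and 0.32). Gsr, glutathione reductase, rose in Alk1 (0.46) and Eng mutants (0.34), and Gstcd, a gene with a glutathione transferase domain, in Smad4 (0.31) and Alk1 mutants (0.75). Mgst1, a microsomal glutathione transferase, fell in Smad4 (-0.40) and Alk1 mutants (-0.62). Nuclear receptors were lower for 3 of 10 tested in Smad4 mutants, 5 of 10 (with 1 higher) in Alk1, 4 of 12 in Eng and 1 of 10 under IgG. Nr3c1, the glucocorticoid receptor, fell in all 4 (-0.44, -0.30, -0.19 and -0.38). Ppara, a fatty acid sensor, fell in Smad4 (-1.95), Alk1 (-0.73) and Eng mutants (-0.69), its relative Ppard in Eng mutants (-0.27), and Rarg, a retinoic acid receptor, in Alk1 mutants (-0.62).
Of 20 or 21 tested genes for other conjugation and reduction, 5 were higher in each comparison and 1 or 2 lower. Dcxr, a carbonyl reductase, rose in Smad4 (2.13 ± 0.16, adjusted p = 4.48e-06) and Eng mutants (2.25 ± 0.13, adjusted p = 7.06e-07). The rise was 1.57 ± 0.24 in IgG-treated Smad4 mutants (adjusted p = 0.00883) and 0.70 ± 0.21 in Alk1 mutants (adjusted p = 0.0243). Papss2, which makes the sulfate donor used by sulfotransferases, rose in Alk1 mutants (0.81 ± 0.12, adjusted p = 0.000302). It rose also where Sult1a1 was not called: in Smad4 (0.84 ± 0.10, adjusted p = 0.000173), Eng (0.29 ± 0.08, adjusted p = 0.0279) and IgG-treated Smad4 mutants (0.74 ± 0.15, adjusted p = 0.0182). Adh1, an alcohol and retinol dehydrogenase, fell in all 4, by 1.75 in Smad4, 1.07 in Alk1, 0.39 in Eng and 1.24 in IgG-treated mutants on the log2 scale.
Retinoid handling genes were lower for 4 of 8 tested in Smad4 mutants, 4 of 7 (with 2 higher) in Alk1, 1 of 8 in Eng and 2 of 8 under IgG, with medians of -0.86, -0.51, 0.00 and -0.61. Stra6, the retinol uptake receptor, fell in Alk1 (-1.61 ± 0.15, adjusted p = 8.99e-06), Smad4 (-0.98 ± 0.11, adjusted p = 8.79e-05) and IgG-treated mutants (-0.53 ± 0.08, adjusted p = 0.00895). Dhrs3, a retinaldehyde reductase, fell in Alk1 (-0.99 ± 0.10, adjusted p = 1.32e-05), Smad4 (-0.46 ± 0.14, adjusted p = 0.0291) and Eng mutants (-0.35 ± 0.07, adjusted p = 0.0048). Rdh10, which oxidises retinol, rose in Alk1 mutants (0.51).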

How the data were processed

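Each cohort and each antibody has its own deposited table, whose columns are libraries and whose values are a normalized signal. The labels call the values raw counts, but they are not whole numbers. Taking a library's most frequent positive value as its step, only 14.3 to 24.6% of its values lay within 0.05 of whole multiples. Among low values it was 29.7 to 74.0%. For this reason no count test was used. The build is mm10 per the submitters' processing notes; aligner and counter, like the kind of normalization, were not stated in the sources at hand. From the 24972 rows of a table, 26 whose symbols could not be used were left out, and 3 columns that match no sample described were not used. Untreated columns were matched to a group and not to 1 sample, so replicate numbers there are file order; libraries without a code carry numbers 1 to 3 in their names. No label pairs them. In Alk1 the deviations from group means of same-numbered libraries had correlations of 0.157, 0.187 and 0.108, and of other pairs -0.169 to -0.021. As a differently numbered Smad4 pair reached 0.356, values of this size cannot settle whether the Alk1 libraries are paired. Coordinates are from GENCODE M21, whose names matched 98.1% of symbols.

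Values were taken as log2(signal + 2), which understates fold changes of low genes. Genes at 20 or more in as many libraries as the smallest group were tested within a table by limma 3.58.1 (R 4.3.3) with an intensity trend, Benjamini-Hochberg adjusted over all genes tested; values are log2 fold changes ± SE. The procedure was tested on simulated data. Differences between cohorts are differences of within-table effects in 1 fit of the 30 untreated libraries. Each LC10 library was scaled by 1 factor of its own, from the median of ratios over the IgG and LC10 libraries, to the level of the IgG table. Fragments per library were inferred from the step. Most values did not lie on its multiples, so these numbers are approximate. Depth limits the precision of low values. Sequence shared between genes was counted in words of 50 bases.

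The genes and lists were chosen with earlier results of these data known. Full values are given for the 6 largest calls of each comparison, genes called the same way in all 3 untreated cohorts and the highest wild-type gene of each family; up to 4 genes per pathway list are named, those of smallest adjusted p, except some that are not reported here. Gsto1, Aldh4a1, Aldh18a1 and the other genes given with fewer values were named as further members.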

Additional observations from a re-analysis of the deposited data

Results flagged for a closer look

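Among 120 groups of 5 libraries examined for the 20 genes named by rule, 4 had 1 library apart from the rest, where chance gives about 1 in 20. Fmo1 stood at 2063 in Smad4 wild type 1, with the others between 968 and 1246. Gsta4 stood at 3343 in Eng mutant 1, with the others between 2743 and 2916, and at 4078 in Eng wild type 3, with the others between 3578 and 3643. Aldh1a2 stood at 168 in Smad4 mutant 3, with the others between 31 and 68.

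Mutant effects of named genes differed between cohorts by a test of the difference itself. For Smad4 minus Alk1 the log2 differences were 1.82 for Ephx1, -1.46 for Fmo1, -0.69 for Gstm7, -0.67 for Gstm1, -2.09 for Sult1a1 and -1.64 for Cyp1b1. For Smad4 minus Eng they were -1.14 for Fmo1, -0.85 for Gstm7, -0.85 for Aldh2, -0.78 for Gstm1, -0.91 for Gstm2, -0.42 for Aldh6a1 and -0.20 for Aldh9a1. For Alk1 minus Eng they were -1.94 for Ephx1, -0.63 for Aldh2, 2.40 for Sult1a1, -0.46 for Fmo5, -1.08 for Cyp26b1, 0.43 for Cyp2d22, -0.81 for Cyp4f17 and -0.18 for Aldh9a1. Age and tamoxifen dose differ for the Alk1 cohort and cannot be told apart from its gene.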

How the results depend on the processing

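Calls kept their sign in every alternative run for each of the 22 Smad4, 20 Alk1, 16 Eng and 16 IgG calls, but their number moved. With glial and neuronal markers in the fit, lower calls were 11 of the 42 in Smad4 and 5 in IgG-treated mutants, and higher calls 8 in Eng; with mural, fibroblast and choroid markers (added after seeing the data, as were splits by library code) lower calls were 11 in Smad4, 10 in Alk1 and 0 in IgG-treated mutants, and higher calls 2 in Alk1 and 0 in IgG-treated mutants. Over all genes tested, Smad4 calls with these covariates were 1116 higher and 1056 lower, and 1266 higher and 1138 lower, where the fit without them gave 2409 and 2211; IgG calls were 382 and 451, and 0 and 0, where it gave 1348 and 1132. Libraries without a code in their names gave 1 higher in Smad4, and 1 higher and 9 lower in Alk1; coded ones 2 higher and 9 lower in Alk1. The joint fit gave 7 lower in Eng. Total scaling shifted the share of higher calls among all called genes to 37.2% in Smad4 and 41.1% in Alk1, against 52.1% and 52.7% as deposited, with 21 and 18 of the 42 lower. The causes were not tested.

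Leaving out 1 library at a time gave 15 to 22 lower and 3 higher in Smad4, 10 to 16 lower and 3 to 4 higher in Alk1 (10 without wild type 4 or 5), 8 to 11 lower and 5 to 7 higher in Eng, 3 to 13 lower and 2 to 3 higher in IgG-treated mutants, and 7 to 11, 6 to 13 and 6 to 11 genes that differ between Smad4 and Alk1, Smad4 and Eng, and Alk1 and Eng. Among named genes 3473 alternative values stayed on the same side of the threshold, 157 lost a call and 70 gained one.

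For IgG libraries the correlations of same-numbered deviations were 0.061, 0.028 and -0.073, and of other pairs -0.148 to 0.136. With 3 libraries a group, these values cannot settle whether equal numbers pair the libraries. A replicate block gave 11 lower and 2 higher. Numbers 1 to 3 in the names of Smad4 and Alk1 libraries without a code were fitted as a block too (added after seeing the data), the coded libraries as 1 block: 3 higher and 24 lower in Smad4, 4 higher and 18 lower in Alk1, keeping 22 of 22 and 20 of 20 calls. In Smad4 the same-numbered correlations were -0.081, 0.17 and -0.097, which cannot settle pairing either. The block gained 5 lower calls there, with Aldh1a2 (adjusted p = 0.0267) and Cyp26b1 (0.00783) among them. In Alk1 the block changed no call of the 42 but those of Gstp1 and Cyp4f16. Eng names share no number within a code; the library code as a term kept 16 of 16 Eng calls. Groups of 3 and low-signal genes such as Cyp27a1 and Ugt1a7c set the limits of precision.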
